A study of Mus musculus with 4 samples.

Results

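The genes described here encode 10 proteins that start, or help to start, the growth of actin filaments: the formins *Fmnl1*, *Fmnl2*, *Fmnl3*, *Diaph1*, *Diaph2* and *Daam1*, the SPIRE nucleator *Spire1*, the WASP and WAVE genes *Was* and *Wasf2*, and *Wipf1*, whose product binds WASP. They were chosen by name, with earlier results of these data known. The study itself names *Spire1* and *Fmnl1* among actin regulatory genes deregulated in its mutant B cells. All were read from the gene count table by Ensembl identifier, where they make up 10 of 41214 genes. B220+ splenocytes, an enriched splenic B cell fraction taken with beads against the B cell surface protein B220, were compared between MIZ-1WT and MIZ-1ΔPOZ mice without stimulation, with 2 libraries per genotype from a biological duplicate. MIZ-1 is a zinc finger transcription factor encoded by *Zbtb17*. MIZ-1ΔPOZ animals were Mb1-Cre x Miz-1floxPOZ mice, in which Cre is driven by the promoter of a B cell receptor component and removes the POZ domain from MIZ-1 in the B lineage, so a truncated protein is left rather than none. Cells of other lineages in the same spleens keep the whole protein. All lines were on a C57BL/6 background and the animals were young adults. The sources used here do not say which MIZ-1WT animals carried Cre or the floxed allele, nor how many animals gave each library.

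A new actin filament does not form readily from single subunits, and nucleators overcome this step. Formins build unbranched filaments and stay on the growing end while profilin delivers subunits, and most of those listed here are held inactive until an upstream signal releases them. SPIRE proteins line up several actin subunits and work together with formins of the FMN subfamily. WASP and WAVE proteins instead switch on the Arp2/3 complex, which grows branches from existing filaments. In B cells actin filaments confine the B cell receptor at rest and are rebuilt when it meets antigen, and loss of WASP in humans causes the immunodeficiency Wiskott-Aldrich syndrome.

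In MIZ-1ΔPOZ cells *Fmnl2* and *Spire1*, both scarce in MIZ-1WT cells, were higher, by 2.57-fold and 3.48-fold. The abundant formins *Fmnl1* and *Diaph1* and the WAVE gene *Wasf2* were lower, by 0.69, 0.57 and 0.42 on the log2 scale. *Fmnl3*, *Diaph2*, *Daam1*, *Was* and *Wipf1* did not pass the test. A gene was tested if 2 or more libraries held 10 or more of its counts, and all 10 genes met this. The test was the quasi-likelihood test of edgeR, with p-values adjusted by the Benjamini-Hochberg method over all 14554 tested genes and a threshold of 0.05, and every adjusted p below is from it. At this threshold 2 of the 10 genes were higher and 3 were lower, while among all tested genes 21.1% were higher and 18.9% were lower, 40.0% in either direction. The share that changed among the 10 genes was therefore near that of all genes. With a limit of 0.6 on the size of the log2 change and an unadjusted p under 0.05, 2 genes were higher and 1, *Fmnl1*, was lower, against 15.0% and 5.30% of all genes. The size limit is the one in the study's methods, which set a limit on p and also state that Benjamini-Hochberg correction was applied. These methods do not say whether the limit was on the adjusted p, so the unadjusted p is a choice made here. With 2 libraries against 2, an exact two-sided permutation test of a single gene cannot give a p below 0.333.

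Each library held between 43026814 and 46387209 counts on genes, and even the lowest count among the 10 genes, 59 for *Spire1*, was above the filter. Reads that the counting matched to no annotated feature took 27.2% and 25.5% of the table in MIZ-1WT and 21.6% and 21.1% in MIZ-1ΔPOZ. These reads need not lie outside genes, and their part in the results was not tested. Levels are given as CPM, counts scaled by TMM to a common library total, and levels of different genes are compared only as CPM per kb of annotated exon. Counts of *Zbtb17* were 2087 and 1946 in MIZ-1WT and 1774 and 1669 in MIZ-1ΔPOZ, and gene counts do not show whether the POZ part was deleted. *Xist*, transcribed from the inactive X chromosome of females, had 49 and 60 counts in MIZ-1WT and 38145 and 40838 in MIZ-1ΔPOZ, and the Y-linked *Ddx3y* had 15840 and 14896 against 680 and 622, so the genotype and the sex of the animals cannot be told apart for any gene below. B cell markers were abundant in every library. In addition, all 16 macrophage markers were higher in MIZ-1ΔPOZ, with a summed level of 979 and 1302 CPM in MIZ-1WT and 5831 and 3648 CPM in MIZ-1ΔPOZ. Of the other lists, 6 of 7 germinal center, all 6 marginal zone and 5 of 6 tested plasma cell markers were higher. The remaining germinal center marker, *Bcl6*, was lower (log2 fold change -1.36, adjusted p = 0.000682), as were 8 of 10 pan-B cell markers. In these bulk samples fewer cells of a type and less RNA per cell cannot be told apart.

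Promoter sequence is shown for *Fmnl1*, *Fmnl2* and *Wasf2*, the changed genes that have an entry among the RefSeq promoters used here, so that the genes that rose and fell can be read side by side. The stretches lie directly before the annotated gene start, leave out all annotated exons, and are given 5′ to 3′ on the plus strand of GRCm38.p6, at chr11:103170888-103171106 for *Fmnl1*, chr2:52857618-52857859 for *Fmnl2* and chr4:133130383-133130504 for *Wasf2*. Capitals mark GC boxes (GGGCGG) and CCAAT boxes (CCAAT) read on either strand.

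Fmnl1: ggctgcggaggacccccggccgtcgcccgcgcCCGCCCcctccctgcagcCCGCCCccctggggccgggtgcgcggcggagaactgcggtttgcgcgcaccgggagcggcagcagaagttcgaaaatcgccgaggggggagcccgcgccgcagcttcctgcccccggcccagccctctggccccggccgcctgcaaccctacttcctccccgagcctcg
Fmnl2: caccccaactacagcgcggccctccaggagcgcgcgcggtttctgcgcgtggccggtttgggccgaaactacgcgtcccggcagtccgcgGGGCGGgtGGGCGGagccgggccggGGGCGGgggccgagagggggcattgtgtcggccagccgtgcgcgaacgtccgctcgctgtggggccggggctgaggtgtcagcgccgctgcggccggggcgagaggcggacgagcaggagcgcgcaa
Wasf2: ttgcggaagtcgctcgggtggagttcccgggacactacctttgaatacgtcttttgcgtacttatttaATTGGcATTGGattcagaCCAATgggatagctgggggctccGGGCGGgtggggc

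The *Fmnl1* stretch held 2 GC boxes, both read on the opposite strand, the *Fmnl2* stretch held 3 close together, and the *Wasf2* stretch held 1 GC box and 3 CCAAT boxes. The E-box CACGTG and the TATA box TATAAA were searched as well and neither was in these stretches. None of the 4 motifs contains another. Over the full 250 upstream bases, 8 of the 10 genes were read, all but *Diaph1* and *Spire1*. Their GC content ran from 53.6% for *Was* to 79.2% for *Fmnl1*, against a median of 52.4% over 32851 mouse promoters. *Fmnl1* held 34 CpG and *Fmnl2* 40 in these bases, where the median promoter held 6 and that of *Was* held 4. A GC box was present in 7 of the 8, with *Was* the exception, and in 32.7% of all promoters. The 32851 promoters were not limited to genes that passed the count filter, whereas the 8 genes all passed it. A CCAAT box was present only in *Fmnl3* and *Wasf2* of the 8, and in 33.8% of all promoters, and an E-box only in *Diaph2*, and in 6.02% of all. None of the 8 held the TATA box, which 12.4% of all promoters did. *Fmnl1*, which fell, and *Fmnl2*, which rose, thus had promoters of like GC content, and these matches describe letters and not bound sites.

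Among the FMNL formins, which act at the cell edge in filopodia, lamellipodia and phagocytic cups, *Fmnl1* is the form best known from blood cells. *Fmnl1* (ENSMUSG00000055805, chr11:103171107-103198901, plus strand) had 5167 and 5057 counts in MIZ-1WT and 3096 and 3643 in MIZ-1ΔPOZ. Both MIZ-1ΔPOZ libraries lay below both MIZ-1WT libraries, and the MIZ-1WT libraries were close to each other. The level was 119 ± 1.32 CPM (SD, n = 2) in MIZ-1WT and 74.0 ± 12.7 CPM (SD, n = 2) in MIZ-1ΔPOZ. Its log2 fold change was -0.69 (standard error 0.11, 95% interval -0.97 to -0.41, adjusted p = 0.00709). *Gm20511* overlaps 2.46% of the exon length on the opposite strand, and the strand setting of the counting is not given in the sources used here.

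*Fmnl2* (ENSMUSG00000036053, chr2:52857860-53133804, plus strand), a formin of protrusions and cell junctions in many tissues, moved the other way. It had 299 and 320 counts in MIZ-1WT and 961 and 745 in MIZ-1ΔPOZ, with the lower MIZ-1ΔPOZ library still above both MIZ-1WT libraries. The level was 7.23 ± 0.537 CPM (SD, n = 2) in MIZ-1WT and 18.6 ± 2.27 CPM (SD, n = 2) in MIZ-1ΔPOZ. Its log2 fold change was 1.36 (standard error 0.12, 95% interval 1.06 to 1.66, adjusted p = 0.00155). *Fmnl3* (ENSMUSG00000023008, chr15:99317225-99370482, minus strand), which builds filopodia, had 4389 and 3841 counts in MIZ-1WT and 4326 and 4528 in MIZ-1ΔPOZ, and the groups overlapped. It stood at 96.0 ± 6.52 CPM (SD, n = 2) in MIZ-1WT and 97.0 ± 8.68 CPM (SD, n = 2) in MIZ-1ΔPOZ. The interval of its log2 fold change, -0.18 to 0.21 around 0.02, leaves a difference of up to that size undetected (adjusted p = 0.896).

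**Figure D1:**
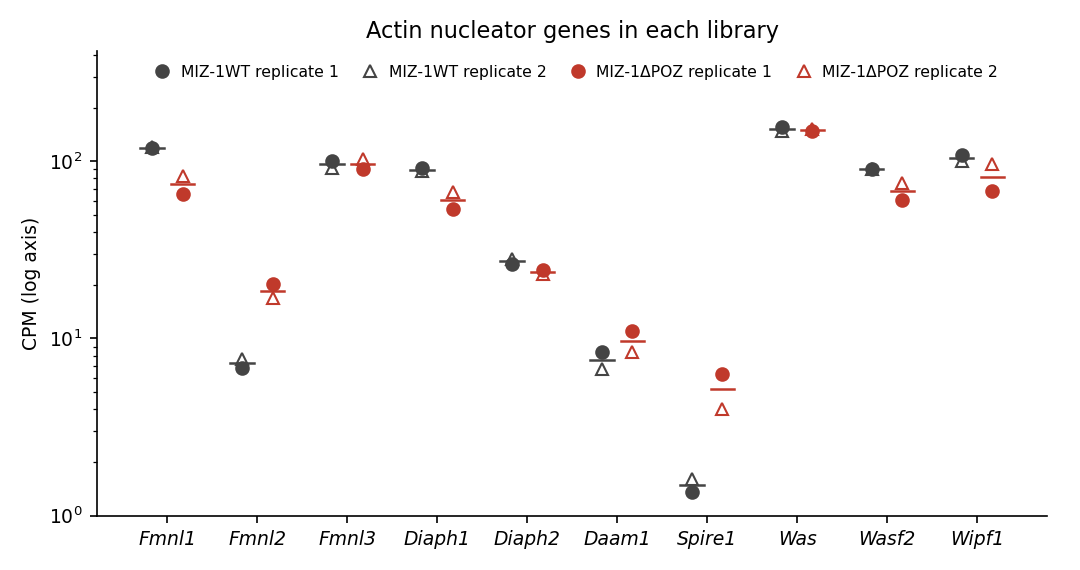
Level of each gene in each library as CPM on a log axis, with circles for replicate 1, triangles for replicate 2 and a short line at the mean of the 2 libraries of a genotype. The red MIZ-1ΔPOZ points lie above the grey MIZ-1WT points for *Fmnl2* and *Spire1*, below them for *Fmnl1*, *Diaph1* and *Wasf2*, and among them for *Fmnl3* and *Was*.

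Because the FMNL genes moved in different directions, their ratios and shares within a library, which need no scaling between libraries, differed between the genotypes. Per kb of exon, *Fmnl1* exceeded *Fmnl3* in both MIZ-1WT libraries, with ratios of 1.21 and 1.35, and was below it in both MIZ-1ΔPOZ libraries, with ratios of 0.735 and 0.827. The ratio of *Fmnl2* to *Fmnl1* was 0.0502 and 0.0549 in MIZ-1WT and 0.269 and 0.177 in MIZ-1ΔPOZ. *Fmnl2* thus went from 2.67% and 3.06% of the FMNL total to 10.2% and 7.43%, and stayed the scarcest of the 3 genes in every library. The summed level of the 3 genes does depend on the scaling. With TMM it was 45.5 and 44.2 CPM per kb in MIZ-1WT and 35.0 and 40.5 CPM per kb in MIZ-1ΔPOZ, whereas with the libraries scaled on 9 pan-B cell genes it was 41.4 and 39.4 against 40.1 and 43.6 CPM per kb and the genotypes overlapped. These ratios and sums are described without a test of their own.

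**Figure D2:**
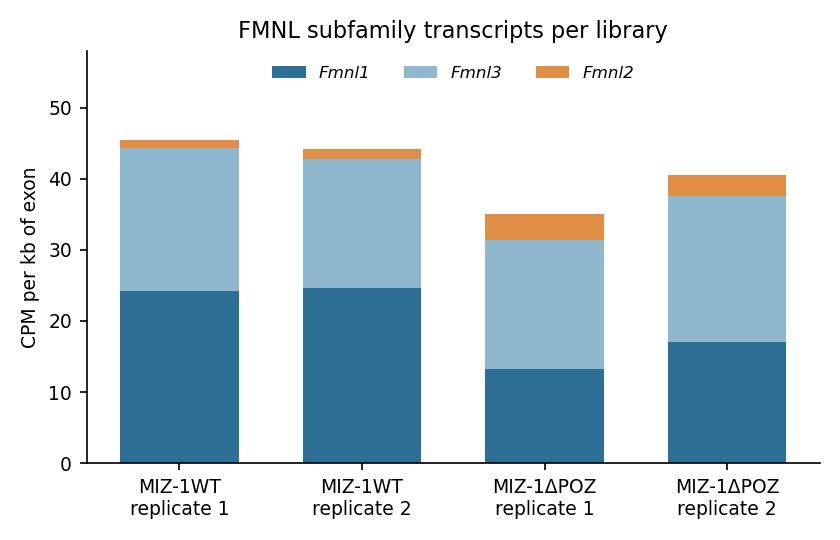
Stacked bars of *Fmnl1* (dark blue), *Fmnl3* (light blue) and *Fmnl2* (orange) in each library, in CPM per kb of exon after TMM scaling, from 0. *Fmnl1* is the largest segment in both MIZ-1WT libraries and *Fmnl3* in both MIZ-1ΔPOZ libraries, where the orange segment is taller. The total is lower there with TMM, at 35.0 and 40.5 against 45.5 and 44.2, but overlaps between the genotypes with the pan-B cell scaling.

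The Diaphanous formins build stress fibres, the cell cortex and the cytokinetic ring. *Diaph1* (ENSMUSG00000024456, chr18:37843601-37935476, minus strand), which encodes mDia1, had 3971 and 3687 counts in MIZ-1WT and 2556 and 2929 in MIZ-1ΔPOZ, without overlap. It stood at 89.4 ± 2.34 CPM (SD, n = 2) in MIZ-1WT and 60.2 ± 9.21 CPM (SD, n = 2) in MIZ-1ΔPOZ. The log2 fold change was -0.57 (standard error 0.10, 95% interval -0.83 to -0.31, adjusted p = 0.00997), and without MIZ-1WT replicate 1 it did not pass the threshold (adjusted p = 0.0661). *Diaph2* (ENSMUSG00000034480, chrX:129749742-130465834, plus strand), the X-linked form, had 1150 and 1180 counts in MIZ-1WT and 1164 and 1011 in MIZ-1ΔPOZ. Once scaled, both MIZ-1ΔPOZ libraries were below both MIZ-1WT libraries, at 23.7 ± 1.00 CPM (SD, n = 2) against 27.2 ± 1.21 CPM (SD, n = 2). This difference of -0.20 on the log2 scale did not pass the threshold (95% interval -0.38 to -0.02, adjusted p = 0.0801).

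*Daam1* (ENSMUSG00000034574, chr12:71831078-71992333, plus strand) encodes a formin that links Wnt planar polarity signalling to the actin cytoskeleton. It had 364 and 283 counts in MIZ-1WT and 527 and 367 in MIZ-1ΔPOZ, which gave 8.34 and 6.73 CPM against 11.1 and 8.36 CPM. The lower MIZ-1ΔPOZ library was level with the higher MIZ-1WT library, and replicates of a genotype differed by 0.31 and 0.41 on the log2 scale. The log2 fold change of *Daam1* was 0.37 (95% interval -0.08 to 0.81, adjusted p = 0.158). It was 0.57 without MIZ-1ΔPOZ replicate 2 and 0.16 without MIZ-1ΔPOZ replicate 1.

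*Spire1* (ENSMUSG00000024533, chr18:67488209-67610790, minus strand), a nucleator of vesicle-bound actin, was the scarcest of the 10 genes and had the highest fold change. It had 59 and 68 counts in MIZ-1WT and 301 and 176 in MIZ-1ΔPOZ. Both MIZ-1ΔPOZ libraries were well above MIZ-1WT, but they were also further apart than those of any other member. The level was 1.48 ± 0.188 CPM (SD, n = 2) in MIZ-1WT and 5.17 ± 1.64 CPM (SD, n = 2) in MIZ-1ΔPOZ. The log2 fold change was 1.80 (standard error 0.27, 95% interval 1.12 to 2.48, adjusted p = 0.00568), and it ran from 1.44 to 2.11 as each library was left out in turn.

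*Was* (ENSMUSG00000031165, chrX:8081453-8090498, minus strand), which encodes WASP, the Arp2/3 activator of blood cells, is X-linked like *Diaph2*. It had 6827 and 6211 counts in MIZ-1WT and 7011 and 6714 in MIZ-1ΔPOZ, and its scaled groups overlapped. The level was 152 ± 6.17 CPM (SD, n = 2) in MIZ-1WT and 150.1 ± 4.01 CPM (SD, n = 2) in MIZ-1ΔPOZ. With a standard error of 0.05 it was the most precisely measured of the 10 genes, and its log2 fold change of -0.02 had a 95% interval of -0.15 to 0.11 (adjusted p = 0.789).

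*Wasf2* (ENSMUSG00000028868, chr4:133130505-133199756, plus strand) encodes WAVE2, which acts on Arp2/3 downstream of Rac in lamellipodia. It had 3939 and 3810 counts in MIZ-1WT and 2858 and 3305 in MIZ-1ΔPOZ. MIZ-1WT libraries were almost equal and both MIZ-1ΔPOZ libraries were lower, at 90.5 ± 0.248 CPM (SD, n = 2) against 67.7 ± 10.8 CPM (SD, n = 2). The log2 fold change was -0.42 (standard error 0.11, 95% interval -0.68 to -0.16, adjusted p = 0.0269). Without MIZ-1WT replicate 1 or without MIZ-1WT replicate 2 it did not pass the threshold (adjusted p = 0.113 and 0.109). Per kb of exon, *Was* exceeded *Wasf2* by 4.56 and 4.28 times in MIZ-1WT and by 6.45 and 5.34 times in MIZ-1ΔPOZ.

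*Wipf1* (ENSMUSG00000075284, chr2:73429610-73529734, minus strand) encodes WIP, the partner that protects WASP from degradation. It had 4730 and 4229 counts in MIZ-1WT and 3212 and 4208 in MIZ-1ΔPOZ. After scaling, MIZ-1ΔPOZ replicate 1 was far below the MIZ-1WT libraries and replicate 2 only slightly below them. The level was 104.5 ± 5.52 CPM (SD, n = 2) in MIZ-1WT and 81.7 ± 20.1 CPM (SD, n = 2) in MIZ-1ΔPOZ. The log2 fold change of -0.36 did not pass the threshold (95% interval -0.75 to 0.04, adjusted p = 0.125). The value depended on which MIZ-1ΔPOZ library was kept, at -0.61 without replicate 2 and -0.12 without replicate 1.

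**Figure D3:**
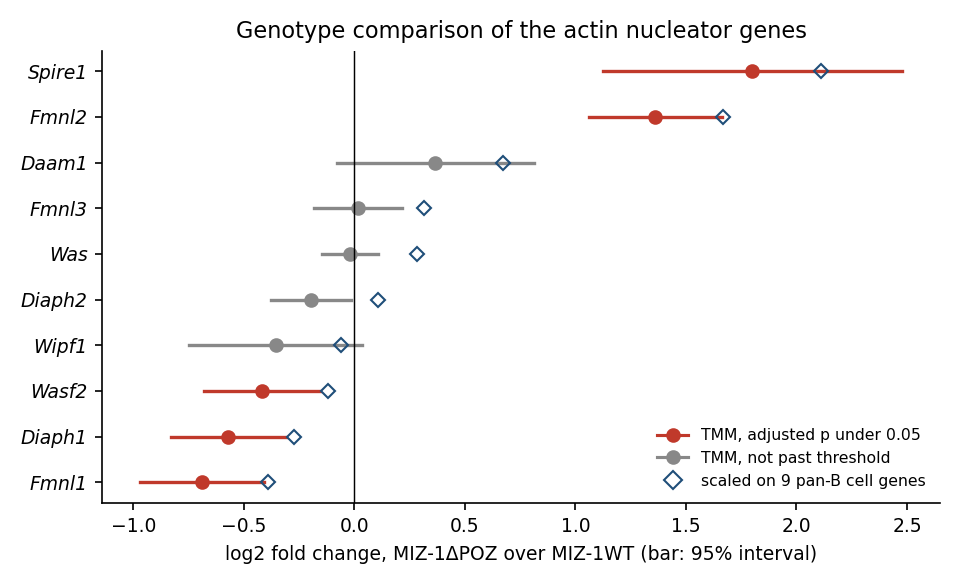
Log2 fold change of each gene, MIZ-1ΔPOZ over MIZ-1WT, as circles with 95% interval bars after TMM scaling (red where the adjusted p is under 0.05) and as open diamonds after scaling on 9 pan-B cell genes. *Spire1* and *Fmnl2* stand apart at 1.80 and 1.36, *Fmnl1*, *Diaph1* and *Wasf2* are the red points below 0, and every diamond lies to the right of its circle.

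Counting only whether the libraries of the genotypes overlapped in CPM, 3 genes were higher in both MIZ-1ΔPOZ libraries (*Fmnl2*, *Spire1* and *Daam1*), 5 were lower in both (*Fmnl1*, *Diaph1*, *Diaph2*, *Wasf2* and *Wipf1*) and 2 overlapped. Among all tested genes, 37.2% were higher and 37.6% were lower without overlap, 74.8% in either direction. The median log2 fold change of the 10 genes was -0.11, against -0.01 for all tested genes.

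Since pan-B cell markers were lower as a list, the comparison was also run with the libraries scaled on 9 of these genes, a choice made after seeing the data. This moved the median log2 fold change of all genes from -0.01 to 0.30, and the calls to 47.1% higher and 4.27% lower. Relative to these B cell genes, 5 of the 10 genes were higher (*Fmnl2*, *Spire1*, *Daam1* at 0.67, *Fmnl3* at 0.31 and *Was* at 0.28) and 2 were lower (*Fmnl1* at -0.39 and *Diaph1* at -0.27), against 2 and 3 with TMM. *Wasf2* was then at -0.12 (adjusted p = 0.292), and *Diaph2* changed sign to 0.11. *Fmnl1* and *Diaph1* were lower, and *Fmnl2* and *Spire1* higher, under both scalings.

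By level per kb of exon, *Was* led in MIZ-1WT at 63.9 CPM per kb. *Fmnl1* followed at 24.4, then *Fmnl3* at 19.1, *Wipf1* at 17.7, *Wasf2* at 14.5 and *Diaph1* at 14.1 CPM per kb. *Diaph2* at 2.36, *Fmnl2* at 1.28, *Daam1* at 0.931 and *Spire1* at 0.191 CPM per kb were far lower. Of neighbours in this order only *Fmnl3* and *Wipf1* overlapped between libraries. In MIZ-1ΔPOZ *Was* again led, at 63.0 CPM per kb, while *Fmnl3* at 19.3 stood before *Fmnl1* at 15.1, and *Fmnl2* at 3.30 stood before *Diaph2* at 2.05 CPM per kb. There the libraries of *Fmnl1* and *Wipf1*, of *Wipf1* and *Wasf2*, and of *Wasf2* and *Diaph1* overlapped. Exon lengths cover all annotated isoforms, so these levels are approximate where a gene uses only some of its exons. Together the 6 formins held 63.2 and 61.3 CPM per kb in MIZ-1WT and 46.9 and 54.1 CPM per kb in MIZ-1ΔPOZ with TMM, but 57.4 and 54.6 against 53.8 and 58.2 CPM per kb with the pan-B cell scaling, where the genotypes overlapped. *Diaph1* went from 22.7% and 22.6% of this total to 18.0% and 19.5%.

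The rest of the actin assembly machinery was read from lists of 66 further genes, of which 58 were tested. Of these, 12 were higher and 13 lower, at a median log2 fold change of -0.02. Among all tested genes 21.1% were higher and 18.9% lower, at a median of -0.01. The counts over the wider lists were therefore near the shares of all genes. Of the 8 other formins 5 were tested, and 4 rose with none falling, at a median of 1.14, and 3 rose whichever library was left out. *Fmn1*, of the formin subfamily that SPIRE proteins pair with, rose from 38 and 43 counts to 164 and 120 (log2 fold change 1.71, adjusted p = 0.00376). *Diaph3*, another Diaphanous formin with a role in dividing cells, rose from 236 and 221 counts to 584 and 494 (log2 fold change 1.14, adjusted p = 0.0018). *Fhod3* rose by 2.33 on the log2 scale but had only 1 and 4 counts in MIZ-1WT and 17 and 11 in MIZ-1ΔPOZ. *Inf2*, which rose by 0.71, and *Fhod1*, at -0.13 and not past the threshold, are named after their values were seen. *Daam2* was at 0 in all libraries.

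Of the other SPIRE, WASP, WAVE and WIP genes 5 were tested, and 4 fell and none rose with TMM, at a median of -0.29, while 0 fell and 0 rose with the pan-B cell scaling. *Wipf2*, a second WIP, fell by 0.49 (adjusted p = 0.0290), *Wasl*, the widely expressed N-WASP, by 0.40 (adjusted p = 0.0145), and *Whamm*, an Arp2/3 activator of internal membranes, by 0.29 (adjusted p = 0.0189). *Jmy*, a related activator named after its value was seen, fell by 0.28 (adjusted p = 0.0476). In this list 0 genes fell without MIZ-1WT replicate 1 and 1 fell without MIZ-1WT replicate 2. Of the 10 Arp2/3 subunit genes 1 rose (*Arpc1a*, 0.30) and 2 fell (*Arpc5l*, -0.32, and *Arpc5*, -0.19), at a median of -0.09, while the pan-B cell scaling gave 7 higher and 0 lower and no rise was called without either MIZ-1WT library. The falls were 1 without MIZ-1WT replicate 1 or MIZ-1ΔPOZ replicate 1 and 0 without MIZ-1WT replicate 2. Of 8 genes of the WAVE complex *Cyfip1*, the subunit that binds Rac, rose by 0.73, whereas the Abi adaptors *Abi3* and *Abi1* fell by 0.25 and 0.22. Opposite-strand exons overlap *Abi3* by 4855 bases, summed over *Gngt2*, *Phospho1* and *Zfp652*, where its own exon length is 4153 bases. Such exons also overlap 12.5% of *Cyfip1* and 4.81% of *Abi1*. With the strand setting of the counting not given, their part in these values was not tested. Both Abi calls were lost without either MIZ-1WT library and with the pan-B cell scaling, and this complex had 1 fall without either MIZ-1ΔPOZ library.

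None of the 7 genes for actin, profilin and elongation factors passed the threshold with TMM, whereas 6 were higher with the pan-B cell scaling. *Actb*, the main cytoplasmic actin, had a log2 fold change of -0.03 with TMM. Of 15 tested genes for capping, severing and Arp2/3 inhibition 4 rose and 4 fell with TMM. With the pan-B cell scaling 8 were higher and 1 was lower. The largest rises with TMM were *Dstn* (0.81), *Coro1c* (0.23) and *Cfl1* (0.21), and the largest falls *Gmfg* (-0.60), *Coro1a* (-0.35) and *Cfl2* (-0.25). Fewer genes were called in each direction without either MIZ-1WT library. Exons of *Snx32* on the opposite strand overlap 16.5% of *Cfl1*.

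**Figure D4:**
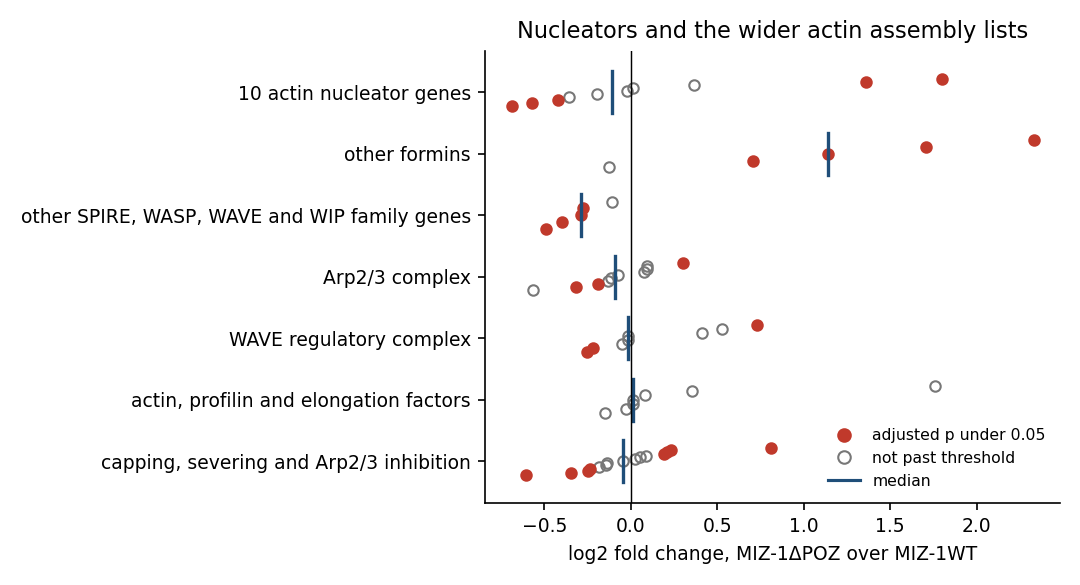
Log2 fold change of every tested gene, MIZ-1ΔPOZ over MIZ-1WT, in the 10 nucleator genes and 6 of the wider lists, with filled red circles where the adjusted p is under 0.05, open circles otherwise and a blue line at the list median. The other formins lie mostly to the right, with a median of 1.14, and the other SPIRE, WASP, WAVE and WIP genes lie to the left of 0.

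Differences between the replicates of a genotype ran along with the genotype difference for several of the 10 genes. Between MIZ-1ΔPOZ replicates 1 and 2, *Spire1* differed by 0.66, *Daam1* by 0.41 and *Fmnl2* by 0.25 on the log2 scale, being higher in replicate 1. *Wipf1* differed by -0.51, *Fmnl1* by -0.35, *Wasf2* by -0.33 and *Diaph1* by -0.31, being lower in replicate 1. So the MIZ-1ΔPOZ library further from MIZ-1WT was replicate 1 for each of these 7 genes. *Diaph2* went the other way, with a difference of 0.09 and replicate 2 further from MIZ-1WT. *Fmnl3* and *Was*, whose genotypes overlapped, differed by -0.18 and -0.05. The median macrophage marker was 0.68 higher and the median germinal center marker 0.38 higher in MIZ-1ΔPOZ replicate 1 than in replicate 2. Other lists differed too, with medians of 0.63 for plasmacytoid dendritic cell, -1.02 for neutrophil and -1.64 for erythroid markers, and the remaining lists lay between -0.23 (T cell) and 0.18 (conventional dendritic cell). Between the MIZ-1WT replicates the macrophage and germinal center medians were -0.38 and -0.48, and those of neutrophil, T cell, erythroid and plasmacytoid dendritic cell markers were 1.52, 0.44, -0.36 and 0.28. There *Spire1* differed by -0.26 and *Fmnl2* by -0.15, while *Daam1* differed by 0.31. *Fmnl1*, *Diaph1* and *Wasf2* differed by at most 0.05 in size between the MIZ-1WT replicates. All 16 macrophage markers were detected in every library, with a lowest count of 46, and what part cells other than follicular B cells have in the changes of *Fmnl2*, *Spire1*, *Fmnl1*, *Diaph1* and *Wasf2* was not tested.

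**Figure D5:**
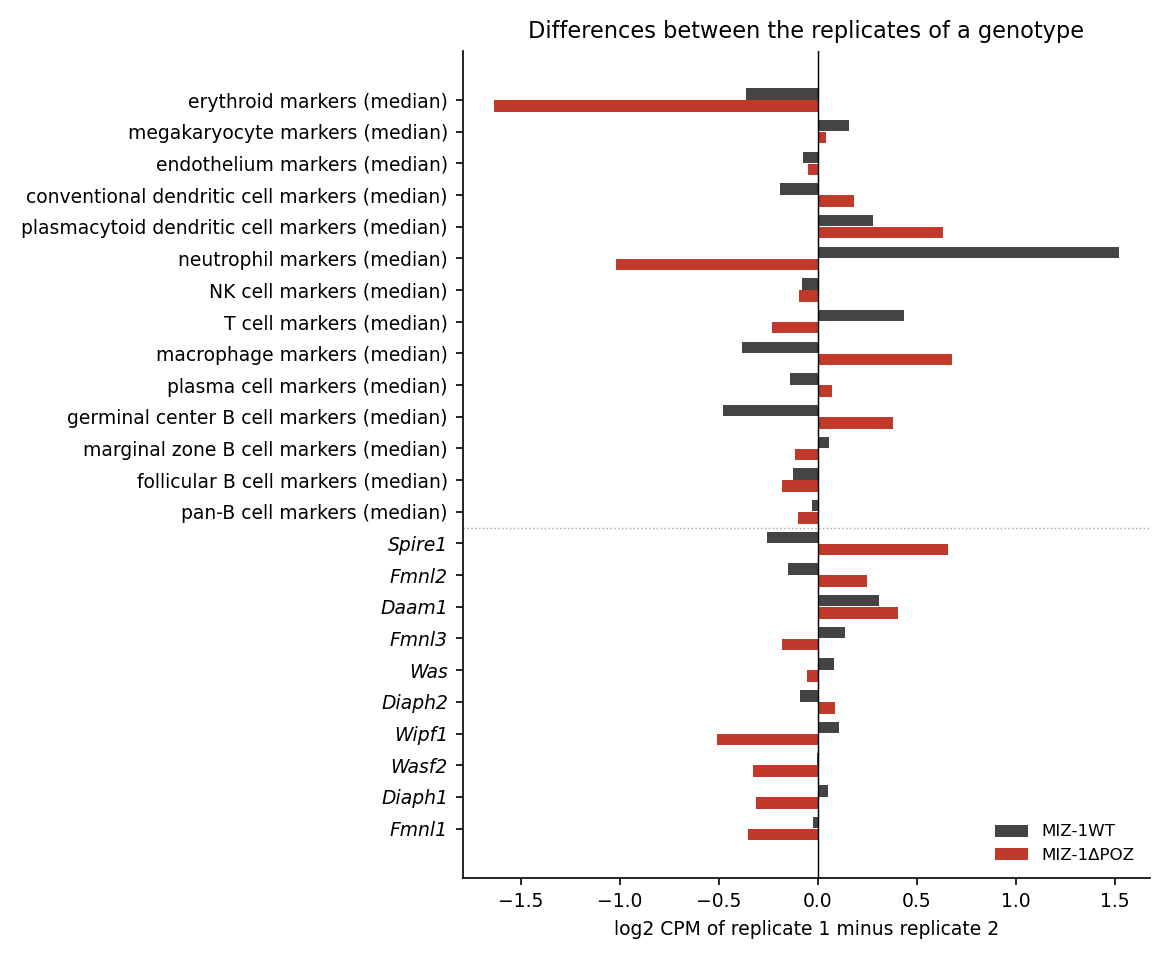
Log2 CPM of replicate 1 minus replicate 2 in MIZ-1WT (grey) and MIZ-1ΔPOZ (red), for each of the 10 genes below the dotted line and for the median of each cell type marker list with a tested gene above it. In MIZ-1ΔPOZ *Spire1* (0.66) extends furthest to the right of the 10 genes, the marker lists run from -1.64 (erythroid) to 0.68 (macrophage), and *Wipf1*, *Fmnl1*, *Wasf2* and *Diaph1* extend to the left.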

How the data were processed

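Total RNA of B220+ splenocytes was depleted of ribosomal RNA and sequenced from both ends as stranded libraries. The authors trimmed the reads with Trimmomatic, mapped them to mm10 (GRCm38) with TopHat2 (version 2.1.0 in the submitters' processing notes), and used HTSeq to count them per Ensembl gene, and these raw counts were deposited without normalization or pooling. The HTSeq strand setting and the Ensembl release are not given in the sources used here. Libraries were grouped by the labelled genotype.

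Symbols and exon lengths were taken from GENCODE M21 for 40340 of 41214 genes. HTSeq's summary lines entered neither library sizes nor tests. Of the table, 21.1% to 27.2% were reads matched to no annotated feature, 0.281% to 0.302% ambiguous reads and 42.8% to 44.1% reads without a unique alignment. Genes for which 2 or more libraries held 10 or more counts were fitted with genotype alone in edgeR 4.0.16 under R 4.3.3, with TMM scaling, and the common dispersion was 0.00848. Log2 CPM for the correlation of replicate differences over all tested genes used a prior count of 2. The replicate differences printed for genes and marker lists used no prior count. The procedure was tested on simulated counts.

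The 10 genes and all lists were chosen with earlier results of these data known. From each wider list at most 3 genes higher and 3 lower, those with the largest changes past the threshold, are named by rule. *Inf2*, *Fhod1*, *Jmy* and *Daam2* fall outside it and were named after their values were seen, and *Actb* is named for its level. The totals over the wider lists include 1 list that is not reported here. Alternatives were DESeq2's size factors, the Wald test of DESeq2 1.42.0, the study's limit on the log2 change with an unadjusted p, no filter, a filter on a mean of 30 RPM or more (reads scaled to the library total without TMM), a replicate block, leaving out each library, and, added after seeing the data, scaling on 9 pan-B cell genes. Markers of T cells, NK cells, neutrophils, plasmacytoid and conventional dendritic cells, endothelium, megakaryocytes, erythroid cells and stroma were read in the same fit, with 2 of 12, 1 of 7, 2 of 8, 1 of 5, 4 of 7, 2 of 5, 1 of 4, 0 of 9 and none tested higher, in that order, and follicular B cell markers with 2 of 4 lower. Of the T cell, conventional dendritic cell and endothelium markers, 1 in each list was lower. Promoters are those of RefSeq on GRCm38.p6, and those of chromosome 18 were not read for the 10 genes.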

Additional observations from a re-analysis of the deposited data

How the results depend on the processing

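*Fmnl1* passed the threshold in the same direction under all 10 alternatives, and *Fmnl2* and *Spire1* under all 9 that could test them. With a mean of at least 30 RPM 6 of the 10 genes were tested and 0 were higher, since *Fmnl2* and *Spire1* lie below that level, and *Wasf2* did not pass (adjusted p = 0.0566). The study's limit on the log2 change, with an unadjusted p, left 1 of the 10 genes lower. With the pan-B cell scaling 5 were higher. Leaving out each library gave from 2 to 3 higher and from 1 to 4 lower, with the 1 lower gene without MIZ-1WT replicate 1. In these fits the lone library of a genotype is assumed to vary like the other genotype. *Wipf1* passed with the DESeq2 Wald test (adjusted p = 0.0463). *Fmnl3* changed sign to -0.0548 without MIZ-1WT replicate 2 and to -0.0593 without MIZ-1ΔPOZ replicate 2. *Was* ran from -0.0623 to 0.0212 as each library was left out. It changed sign to 0.0569 with the 30 RPM filter, to 0.0212 without MIZ-1WT replicate 1, to 0.017 without MIZ-1ΔPOZ replicate 1 and to 0.28 with the pan-B cell scaling, and *Diaph2* to 0.11 with that scaling. The cause of these changes was not tested.

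Of the 58 tested genes of the wider lists, 12 were higher and 13 lower, near the shares of all tested genes. The pan-B cell scaling gave 35 and 1, the limit on the log2 change 1 lower, the 30 RPM filter 3 lower, and leaving out each library from 6 to 12 higher and from 3 to 13 lower, with 6 and 3 without MIZ-1WT replicate 1 and 7 and 3 without MIZ-1WT replicate 2. Replicate numbers are shared between genotypes, and the correlation of replicate differences over 14554 genes was -0.0688. This value alone cannot exclude a shared preparation. The sources used here do not say whether libraries with the same number were paired. With the replicate as a block 2 of the 10 genes were higher and 3 lower, 7 wider genes were lower, and 2633 of all genes were higher and 2099 lower, against 3076 and 2746. Over all genes, leaving out MIZ-1WT replicate 1 gave 1374 higher and 848 lower, and MIZ-1WT replicate 2 gave 1728 and 1115.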
